A study of Mus musculus with 8 samples.

Results

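Muscle that wastes degrades its own myofibrils through ubiquitin ligases, and 10 genes of that programme were followed here in the white gastrocnemius of wild type mice and of mice homozygous for a Pus1 mutation. The 10 genes are the ubiquitin ligase genes Fbxo32, Trim63, Fbxo30, Fbxo31 and Fbxo40, the kelch-family gene Klhl38, the transcription factor genes Foxo1 and Foxo3, and the growth arrest genes Cdkn1a and Gadd45a. They were chosen by function, and Fbxo32 and Klhl38 were also selected on their genotype ratios, which earlier processing of the same arrays had shown to be lower in mutants. All probes whose accession maps to one of these symbols were used, 15 in all. Of these, 13 probes of 9 genes could be tested, among 23098 probes and 11893 named genes on the arrays. The genotype ratios of Fbxo32 and Klhl38 are therefore given as a description and without a test.

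Gene expression was measured on Agilent 2-colour arrays in 8 mice aged 14 to 16 weeks, all of strain C57BL/6J after 5 generations of backcrossing and none of them treated. Of these, 4 were wild type for PUS1 and 4 were homozygous mutant for PUS1, the enzyme that turns uridine into pseudouridine in tRNA. The series is titled a knockout, but the labels do not describe the allele. RNA came from the white portion of the gastrocnemius, which the labels call a fast muscle. On each of the 4 arrays a mutant was hybridised against the wild type animal that had its sex and number, in the other dye. Pairs 1 and 2 were male and pairs 3 and 4 female, and the mutant carried Cy5 on arrays 1 and 3 and Cy3 on arrays 2 and 4.

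The share of spots well above background was 38.0% to 46.5%, and precision is limited by the small number of arrays. Levels are log2 intensities after normalization, and a level of one probe cannot be set against that of another. The probe of Pus1 itself was well above background in every wild type animal (4 of 4) but in no mutant (0 of 4), and mutants were at least 2.76-fold below wild type animals. All 11 markers of fast fibres were tested, and their summed intensity ran from 1913794 to 3068953 units in wild type animals and from 2286735 to 3560410 units in mutants. The labelled tissue thus carried markers of fast fibres, which does not show how many slow fibres it held. The fast fibre sums were not centred within dye. They ran from 1913794 to 2506762 units in the animals in Cy3 and from 2685793 to 3560410 units in those in Cy5, without overlap. Their ranges therefore hold a difference between dyes and are not read as a spread between animals. Pus1 lies on chromosome 5, and 0 of the 10 genes lie there.

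Ubiquitin ligases attach ubiquitin to proteins and so mark them for the proteasome. F-box proteins are the substrate-binding subunits of ligases built on cullin 1, and many kelch-like proteins play that part in ligases built on cullin 3. In muscle, insulin and IGF-1 activate the kinase Akt, which keeps FoxO transcription factors out of the nucleus. When Akt activity falls, as in fasting or disuse, FoxO factors enter the nucleus and switch on ligase genes, and glucocorticoids act on some of the same promoters.

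The promoter of Trim63, the ligase MuRF1, held letters that match a FoxO element and a glucocorticoid element, although binding was not measured. It is printed because it is the 1 promoter of these genes that held both a FoxO element and a glucocorticoid element. The RefSeq table has 10 promoters of 8 of the genes, each running from 250 bases before the start to 50 after it, and no entry for Fbxo32 or Klhl38. Shown are the 250 bases before the start of Trim63 on the plus strand of GRCm38.p6, at chr4:134314870-134315119. The capitals mark, in order, the glucocorticoid element, the FoxO element read on the opposite strand, and a TATA box.
Trim63: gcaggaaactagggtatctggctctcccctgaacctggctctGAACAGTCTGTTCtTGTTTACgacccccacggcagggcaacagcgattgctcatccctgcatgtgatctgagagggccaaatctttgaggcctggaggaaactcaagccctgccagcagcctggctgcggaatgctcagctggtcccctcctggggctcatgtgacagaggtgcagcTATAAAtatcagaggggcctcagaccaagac

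Motifs were searched on both strands. The FoxO element, searched as GTAAACA, lay at positions −194 to −188 from the start and occurred in 3.65% of the 32851 promoters of the table. The glucocorticoid element, searched as GNACA and TGTNC with any 3 bases between them, lay at −208 to −196, with 1 base between it and the FoxO element, and occurred in 0.475% of promoters. Both together occurred in 5 promoters of the table, or 0.0152%. The TATA box, searched as TATAAA, lay at −31 to −26 and occurred in 13.6% of promoters. An E-box CAGCTG, a site read by myogenic factors, was found in 4 of the 10 promoters, against 16.3% of all promoters. These were Trim63, both Fbxo40 promoters and 1 of the Cdkn1a promoters, where it lay after the start, at positions 38 to 43. With so few promoters, nothing is read from this share. These matches describe the letters of the windows, and none of the motifs overlapped another.

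Fbxo32 encodes atrogin-1, an F-box protein of striated muscle and the best-known marker of atrophy together with MuRF1. Its probe on chromosome 15 was printed in 10 spots on each array. Wild type animals 1 to 4 had levels of 11.93, 11.60, 10.77 and 10.79, and the mutants with these numbers 10.63, 11.94, 10.01 and 10.21. The mutant was lower in pairs 1, 3 and 4 and higher in pair 2, and the groups overlapped. The log2 ratios of mutant over wild type were −1.30, 0.34, −0.75 and −0.58, and the fit gave a mean of −0.57 (SE 0.18) over 4 pairs, or 0.671 times the wild type level. Within an array the 6 to 10 usable spots of the probe differed little, with SDs of the log2 ratio between 0.04 and 0.08. The spread between animals was thus far larger than that between spots. The SD of the level over 4 wild type animals was 0.58, larger than that of 95.5% of tested probes, and over 4 mutants 0.87, larger than that of 97.4%.

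Klhl38, a kelch-like gene with high expression in skeletal muscle, is the neighbour of Fbxo32 on chromosome 15, with no protein-coding gene between them. Its level was 8.48, 8.67, 8.65 and 9.11 in wild type animals and 7.75, 8.49, 7.73 and 8.52 in mutants. The mutant was the lower animal in each of the 4 pairs, although mutants 2 and 4 lay above wild type animal 1. The log2 ratios were −0.73, −0.19, −0.92 and −0.58, and the fit gave a mean of −0.61 (SE 0.11) over 4 pairs, or 0.657 times the wild type level. Of all tested probes, 5.10% were lower in the mutant of 4 of 4 pairs. Since this contrast chose both genes, nothing is read from that share.

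The genes next to this pair gave small ratios. Of the 3 protein-coding neighbours on the Fbxo32 side, Zhx1 had a log2 ratio of −0.12 (SE 0.11) and Wdyhv1 of 0.14 (SE 0.09). On the Klhl38 side, Fam91a1 had one of −0.05 (SE 0.10). Atad2 and Anxa13 were too dim to be tested, and Fer1l6 had no probe. The limma adjusted p was 1 for each of the 3 tested neighbours.

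Trim63, the ligase MuRF1 that ubiquitinates thick-filament proteins in mouse muscle, stayed within a narrow band in wild type animals. The level of its brighter probe was 13.46, 13.52, 13.37 and 13.43 in wild type animals and 13.02, 13.42, 13.39 and 13.54 in mutants. Mutant 1 had the lowest level of all 8 animals and mutant 4 the highest. The wild type SD of 0.06 was larger than that of 5.88% of tested probes, whereas the mutant SD of 0.22 was larger than that of 52.1%. The log2 ratios were −0.44, −0.10, 0.02 and 0.11, with a fitted mean of −0.10 (SE 0.12). The other Trim63 probe followed it across the 8 animals (r = 0.97) with ratios of −0.77, 0.15, −0.07 and 0.28. Its fitted mean was also −0.10 (SE 0.14). Beside those of Fbxo32, the ratios of the brighter Trim63 probe had the same sign in pair 1 and the opposite sign in the other 3 pairs. Those of the other probe had the same sign in pairs 1, 2 and 3 and the opposite sign in pair 4. The 2 probes thus do not give 1 account of how Trim63 ran beside Fbxo32.

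Fbxo30 encodes MUSA1, an F-box protein that BMP signalling holds down in mouse muscle. Its brighter probe read 8.66, 8.47, 8.32 and 8.21 in wild type animals and 8.75, 8.64, 8.17 and 8.20 in mutants. The fitted log2 ratio was 0.03 (SE 0.10), and the groups overlapped throughout. A dimmer probe of the gene gave 0.01 (SE 0.10) but tracked the brighter one poorly (r = 0.30 over 8 animals).

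Fbxo31, an F-box protein known for directing cyclin D1 to degradation, had the largest SDs of the 9 tested genes by its brighter probe (0.74 in wild type animals and 0.99 in mutants). That probe read 13.34, 13.98, 14.19 and 15.13 in wild type animals and 12.78, 13.91, 15.04 and 14.63 in mutants. The log2 ratios of −0.56, −0.08, 0.86 and −0.49 disagreed in sign, and the fitted mean was −0.07 (SE 0.23). The other probe read between 12.05 and 12.58 in all 8 animals and gave a fitted ratio of −0.16 (SE 0.12). The 2 probes correlated at r = 0.33 and their ratios differed by up to 1.04 in 1 pair, so they do not give 1 account of the gene.

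Fbxo40, a muscle-specific F-box protein that directs the insulin receptor substrate IRS1 to degradation, read 8.70, 8.78, 8.64 and 8.97 in wild type animals and 8.78, 8.67, 8.95 and 8.93 in mutants. The fitted log2 ratio was 0.06 (SE 0.10), within the spread of either group (SD 0.14 and 0.13).

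**Figure D1:**
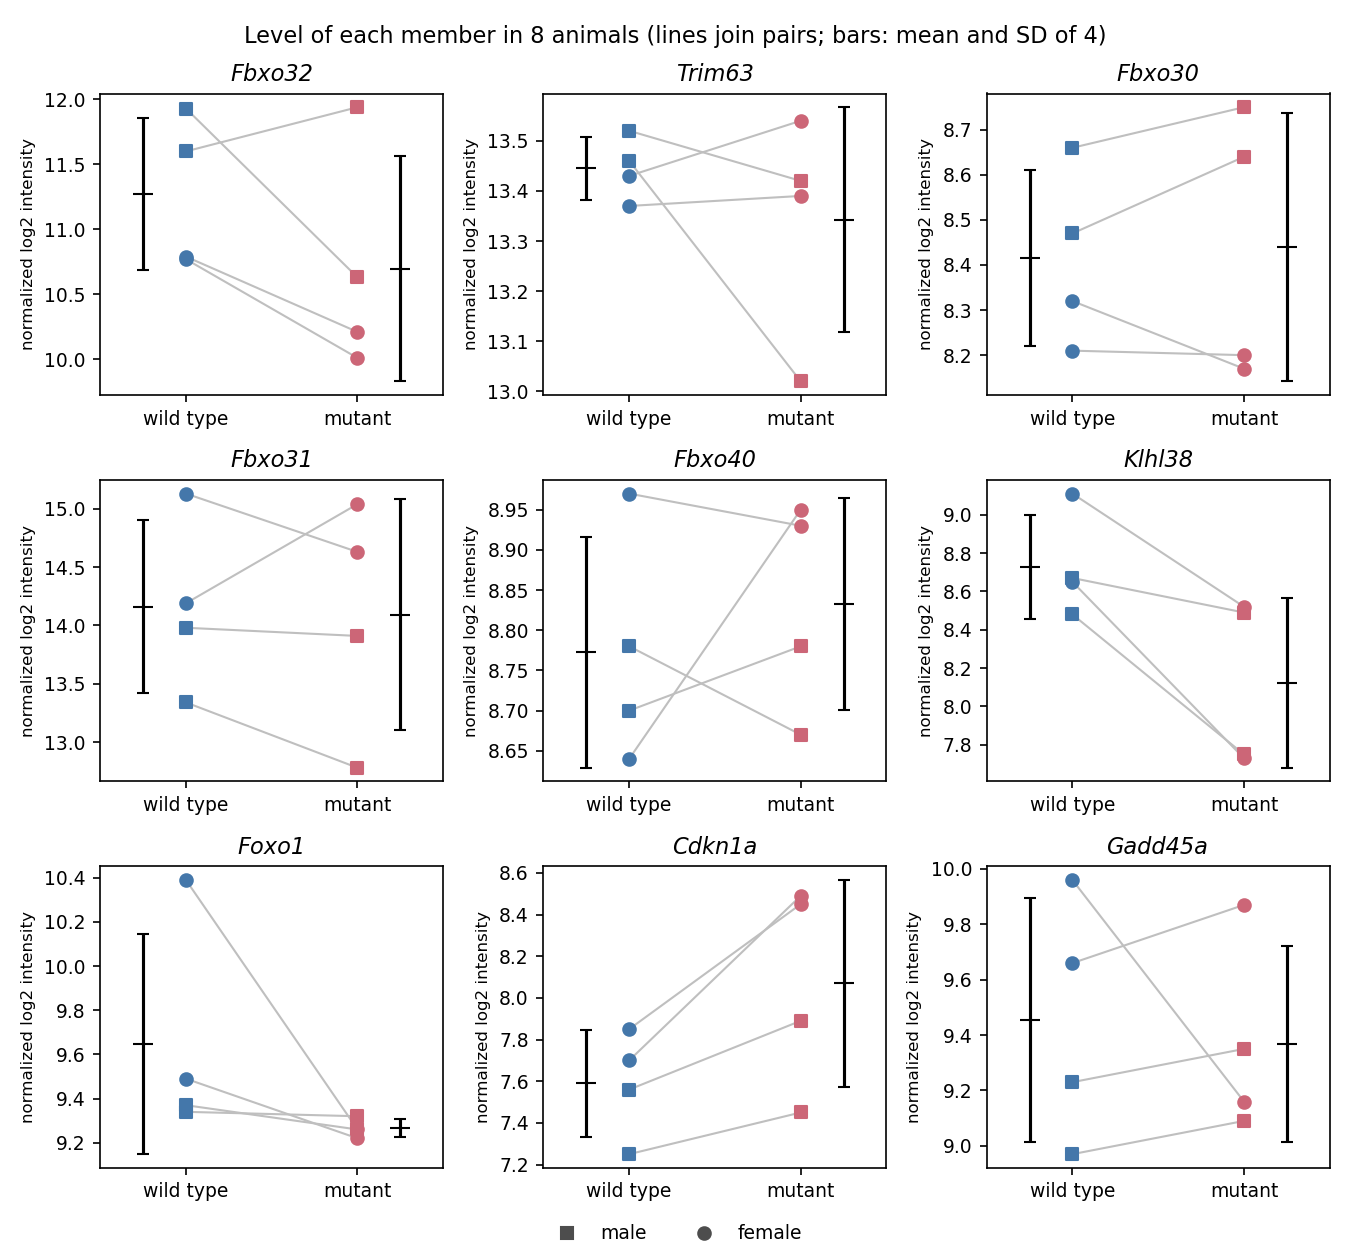
Normalized log2 intensity of the 9 tested genes in each animal, 1 panel per gene with its own axis, representative probe. Squares are males and circles females, blue wild type and red mutant, grey lines join the 2 animals of an array, and black bars give mean and SD of 4 animals. The lines slope down in 4 of 4 pairs for Klhl38 and Foxo1, in 3 of 4 for Fbxo32, and up in 4 of 4 for Cdkn1a.

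Foxo1 encodes a FoxO factor that rises in fasting muscle. Its level was 9.37, 9.34, 9.49 and 10.39 in wild type animals and 9.26, 9.32, 9.22 and 9.26 in mutants. The SD over the 4 mutants was 0.04, smaller than that of all but 0.944% of tested probes, and each mutant lay below each wild type animal. Such a separation was seen in 0.710% of tested probes. Most of the difference came from wild type animal 4, whose pair gave a log2 ratio of −1.13 against −0.11, −0.02 and −0.28 in the other pairs. The fitted mean was −0.38 (SE 0.19), and without pair 4 it was −0.11. A second probe of Foxo1 showed the same high animal (10.09 against 8.82 to 9.21 in the other wild type animals) but overlapping groups, with a fitted ratio of −0.32 (SE 0.17).

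Foxo3, the FoxO factor that is sufficient to induce atrogin-1 in mouse muscle, had 1 probe, and it was not well above background in any of the 8 animals. Its readings of 6.29 to 6.60 carry no order, and no ratio is given.

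Cdkn1a, which encodes the cell cycle inhibitor p21, a target of FoxO factors and of p53, had the higher level in the mutant in each of the 4 pairs. Its probe, printed in 10 spots, read 7.56, 7.25, 7.85 and 7.70 in wild type animals and 7.89, 7.45, 8.45 and 8.49 in mutants. The mutants of the female pairs lay above all other animals, while male mutant 2 lay below 3 wild type animals. The log2 ratios were 0.33, 0.20, 0.61 and 0.80, with a fitted mean of 0.48 (SE 0.13), or 1.40 times the wild type level. Spots of the probe on 1 array had SDs of the log2 ratio between 0.10 and 0.15. Of all tested probes, 4.83% were higher in the mutant of 4 of 4 pairs. A second probe, designed on another Cdkn1a transcript, was not well above background in any animal.

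Gadd45a, a stress and growth arrest gene that is induced when muscle loses its nerve, read 8.97, 9.23, 9.96 and 9.66 in wild type animals and 9.09, 9.35, 9.16 and 9.87 in mutants. Pair 3 gave a log2 ratio of −0.80 and the other pairs 0.12, 0.12 and 0.21. The fitted mean was −0.09 (SE 0.16), and it was 0.14 without pair 3.

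**Figure D2:**
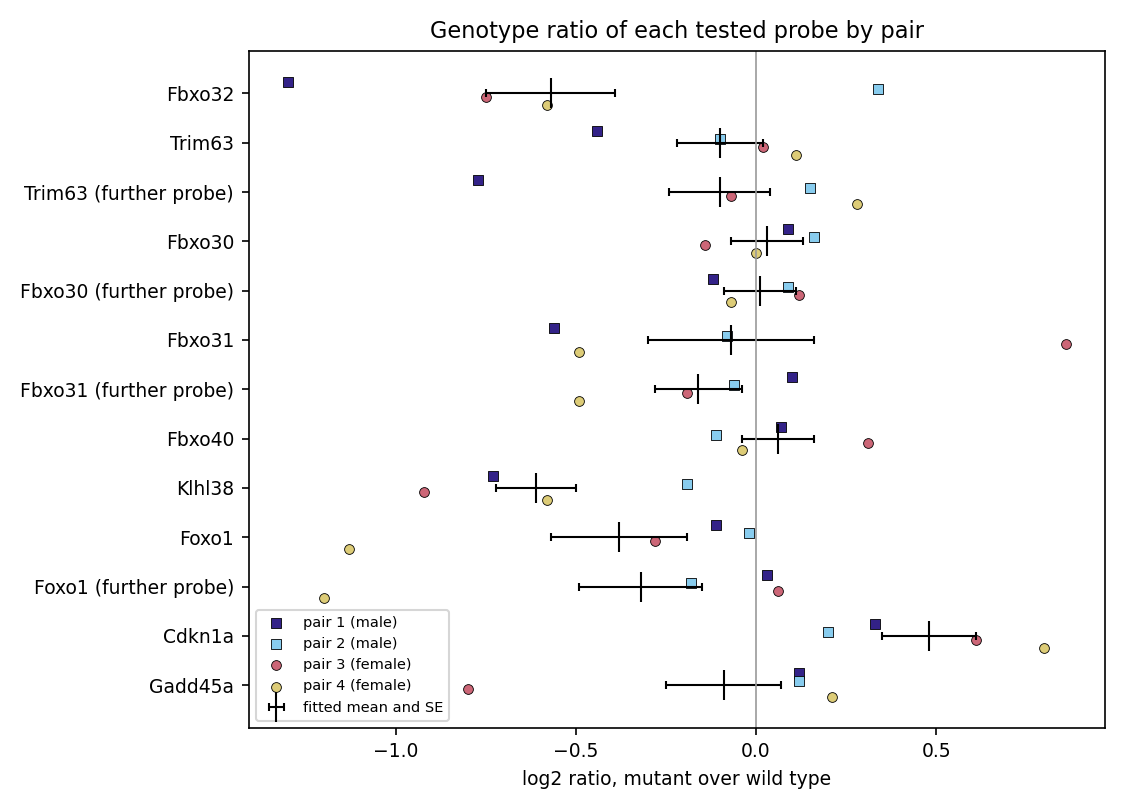
Log2 ratio of mutant over wild type for each of the 13 tested probes. Coloured symbols are the 4 pairs (squares male, circles female) and black bars the fitted mean and SE from limma. The bars of Fbxo32 and Klhl38 lie at −0.57 and −0.61, that of Cdkn1a at 0.48, and pair 4 alone carries the ratios of both Foxo1 probes past −1.

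Over all tested probes the median log2 ratio was 0.00127 and the median absolute ratio 0.0756. No probe of the arrays passed an adjusted p of 0.05 in the limma fit (0%, 0 of 23098), and 3.35% had an unadjusted p under 0.05. The probe of Pus1, the mutated gene, had the smallest p of all and also missed the threshold. Its log2 ratio was −1.46 (SE 0.10, limma adjusted p 0.0786), so a missing call does not show that a gene was unchanged. The limma adjusted p was 1 for each of the 11 tested probes of the genes other than Fbxo32 and Klhl38. Among the 7 tested genes other than Fbxo32 and Klhl38, 4 had a fitted ratio below 0 and 3 above it, beside 49.6% of tested probes below 0.

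Markers of other cell types were read in the same animals. All 12 markers of slow and oxidative fibres had a fitted ratio below 0 (median −1.1), with pair medians of −2.3, 1.1, −1.5 and −2.3. Their summed intensity ran from 79200 to 151727 units in wild type animals and from 22943 to 82730 in mutants, and none of the 12 was too dim to be tested. In pair 2 the mutant was higher in 9 of the 12 markers and lower in 3, with sums of 82730 against 79200 units. The largest ratios of that pair were 5.06 for Myh7, 3.51 for Myl2 and 3.15 for Tnnt1. Those below 0 were Mb (−0.49), Tpm3 (−0.27) and Myh2 (−0.14). Bright markers weigh most in the sums, such as Mb, at 15.41 in wild type animal 2 and 14.93 in mutant 2. That pair also had the higher Fbxo32 in the mutant and the ratios closest to 0 for Klhl38 and the brighter Foxo1 probe, but not for the other Foxo1 probe (0.03, −0.18, 0.06 and −1.20). On the fast fibre list, Myh1, a myosin heavy chain of fast fibres, was lower in the mutant of 4 of 4 pairs (−2.47, −0.26, −1.18 and −1.25) with a fitted ratio of −1.29 (SE 0.25), while the list had a median of 0.066. Slow fibre markers also differed in spread among the wild type animals alone. Their levels ran from 8.63 to 14.46 for Myl2 but from 11.01 to 11.66 for Tpm3. In whole muscle, fewer cells of a type and less RNA per cell cannot be told apart. Whether the portion of muscle dissected differed between animals was not tested.

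All 6 tested erythroid markers had ratios above 0 (pair medians 0.82, −0.83, 1.0 and 1.5; sums of 44099 to 167400 units in wild type animals and 88521 to 419194 in mutants). The fibroblast list gave pair medians of 1.4, −0.30, 0.15 and 0.54, the macrophage list 0.89, −0.31, −0.15 and 0.38, and the adipocyte list 1.6, −1.1, 0.56 and 0.095. The nerve and Schwann cell list gave 0.063, −0.025, 0.70 and −0.23. Endothelial markers stayed closer to 0, at −0.26, 0.047, 0.095 and 0.0032, as did satellite cell markers, at 0.21, −0.14, −0.027 and 0.075. Of the 66 markers tested over all lists, 0 passed the limma test between genotypes, and the part of other cells in the ratios above was not tested.

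Sex was not used to choose the genes, so it could be tested. Each sex was on 2 arrays of its own, where its animals were hybridised in pairs. A sex difference therefore cannot be told apart from a difference between these arrays. On separate channels, with genotype and dye as terms, 1.38% of tested probes passed an adjusted p of 0.05 (319, of which 200, or 0.866%, were lower and 119, or 0.515%, higher in females). This count fell to 54 without pair 2, to 32 without pair 3 and to 16 without pair 4. None of the 13 probes passed, and 5 of 13 had an unadjusted p under 0.05, as had 22.9% of all tested probes.

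Fbxo32 came closest. Its mean level was 11.52 ± 0.62 (SD, n = 4) in males and 10.44 ± 0.39 (n = 4) in females, a log2 difference of −1.08 (SE 0.23) or 0.474 times the male level, with a limma adjusted p of 0.064. The 4 females, at 10.77, 10.79, 10.01 and 10.21, lay below 3 of the males, and 2 of them lay above male mutant 1 at 10.63. The difference was −0.99 within wild type animals and −1.17 within mutants. It passed the threshold in 3 of 9 alternative analyses, and its limma adjusted p ranged from 0.0178 to 0.543 over them. Klhl38, its neighbour, had a log2 difference of 0.15 (SE 0.23, limma adjusted p 0.729).

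The other ligases pointed in both directions. Fbxo30 was lower in females by its brighter probe, at 8.23 ± 0.06 against 8.63 ± 0.11 in males, and the sexes did not overlap. Of all tested probes, 9.89% had every female below every male. The log2 difference was −0.40 (SE 0.11, limma adjusted p 0.0983), but that of the dimmer probe was −0.08 (SE 0.11).

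Fbxo31 was higher in females by its brighter probe, at 14.75 ± 0.43 against 13.50 ± 0.56, again without overlap, as in 7.45% of tested probes. The log2 difference was 1.24 (SE 0.34, limma adjusted p 0.101), or 2.37-fold, and it was 0.80 without pair 1 and 1.69 without pair 2. That of the other probe was 0.15 (SE 0.13). For both genes the sex difference was thus seen by 1 of 2 probes. Trim63 differed by 0.08 (SE 0.14) and Fbxo40 by 0.14 (SE 0.11).

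Cdkn1a was higher in females, at 8.12 ± 0.41 against 7.54 ± 0.27, a log2 difference of 0.58 (SE 0.17) with a limma adjusted p of 0.108. Gadd45a was higher by 0.50 (SE 0.19, limma adjusted p 0.171), with female mutant 3 at 9.16 among the males. Foxo1 differed by 0.27 (SE 0.23), a value that was 0.04 without pair 4 and 0.50 without pair 3. Summed slow fibre markers overlapped between the sexes, from 22943 to 140253 units in males and from 33829 to 151727 in females.

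**Figure D3:**
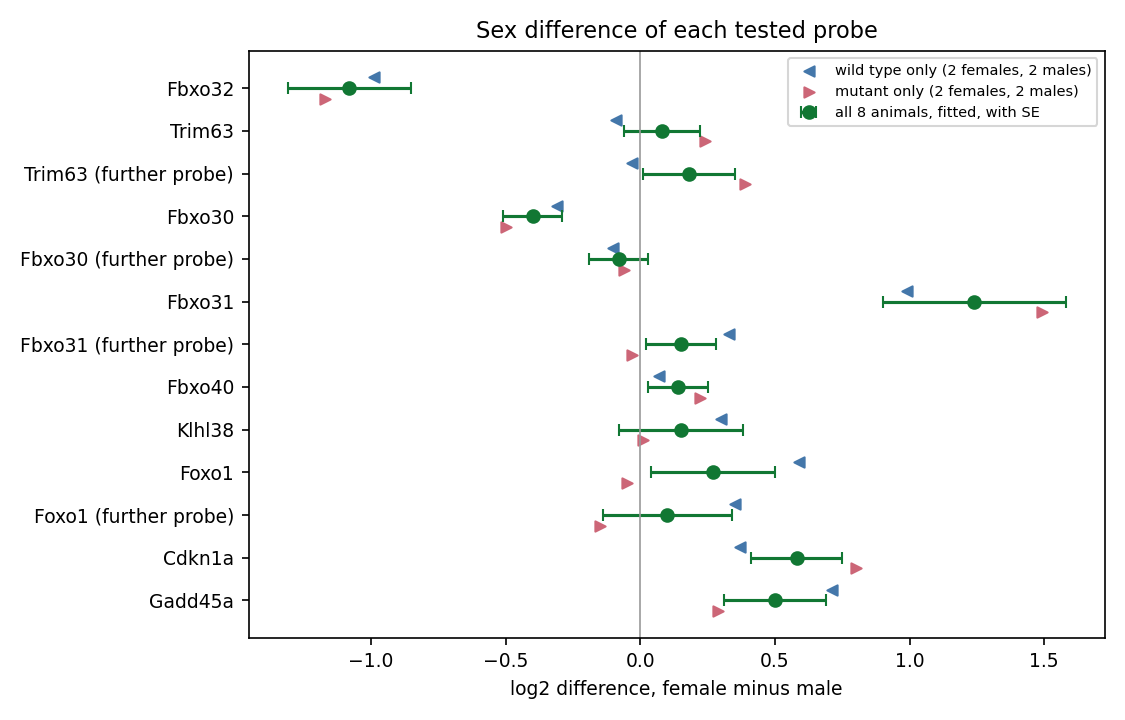
Log2 difference of female minus male for each of the 13 tested probes. Green points and bars are the fitted difference and SE over 8 animals, and triangles the difference of means within wild type animals (blue) and within mutants (red), 2 females and 2 males each. Fbxo32 lies at −1.08 with both triangles near it, whereas the brighter Fbxo31 probe lies at 1.24 and the other Fbxo31 probe at 0.15.

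Whether the genotype ratio differed between the sexes was tested as an interaction term. No probe of the arrays passed (0%, 0 of 23098), 2.19% had an unadjusted p under 0.05, and the limma adjusted p was 1 for all 13 probes. Foxo1 had the largest difference of the ratio, −0.64 (SE 0.30), female minus male, followed by the brighter Fbxo31 probe with 0.50 (SE 0.44). The male pairs ran one way and the female pairs the other for Trim63 and Fbxo30 by their brighter probes, as in 8.58% of tested probes. Their other probes did not show this. For Cdkn1a the difference was 0.44 (SE 0.23), for Klhl38 −0.29 (SE 0.23) and for Fbxo32 −0.19 (SE 0.38).

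Co-variation of the genes across animals was described on levels centred within each dye. The 8 animals are not independent points for this purpose, since the 2 of a pair share an array, and no test is given. Of the 36 pairs of tested genes, 2 had an absolute r of at least 0.9. The share over all pairs of genes on the arrays was not computed, so nothing is read from this count. Fbxo32 and Cdkn1a ran opposite to each other (r = −0.95, rho = −0.98), also after removal of the group means (−0.95) and without the 2 animals farthest out on Fbxo32 (−0.89). The female mutants had the lowest Fbxo32 and the highest Cdkn1a, and wild type male 2 the highest Fbxo32 and the lowest Cdkn1a. Sex means were not removed, and the fitted sex differences of these genes had opposite signs (−1.08 and 0.58).

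The other pair was Fbxo30 and Fbxo31 (r = −0.94, rho = −0.88), by their brighter probes. Their fitted sex differences also had opposite signs (−0.40 and 1.24). Fbxo32 and Trim63, which are often used together as a readout of atrophy, had an r of 0.12, and Fbxo32 and its neighbour Klhl38 one of 0.32, which was 0.02 after removal of the group means. Klhl38 and Foxo1 had an r of 0.82, which dropped to 0.39 without the 2 animals farthest out on Klhl38.

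**Figure D4:**
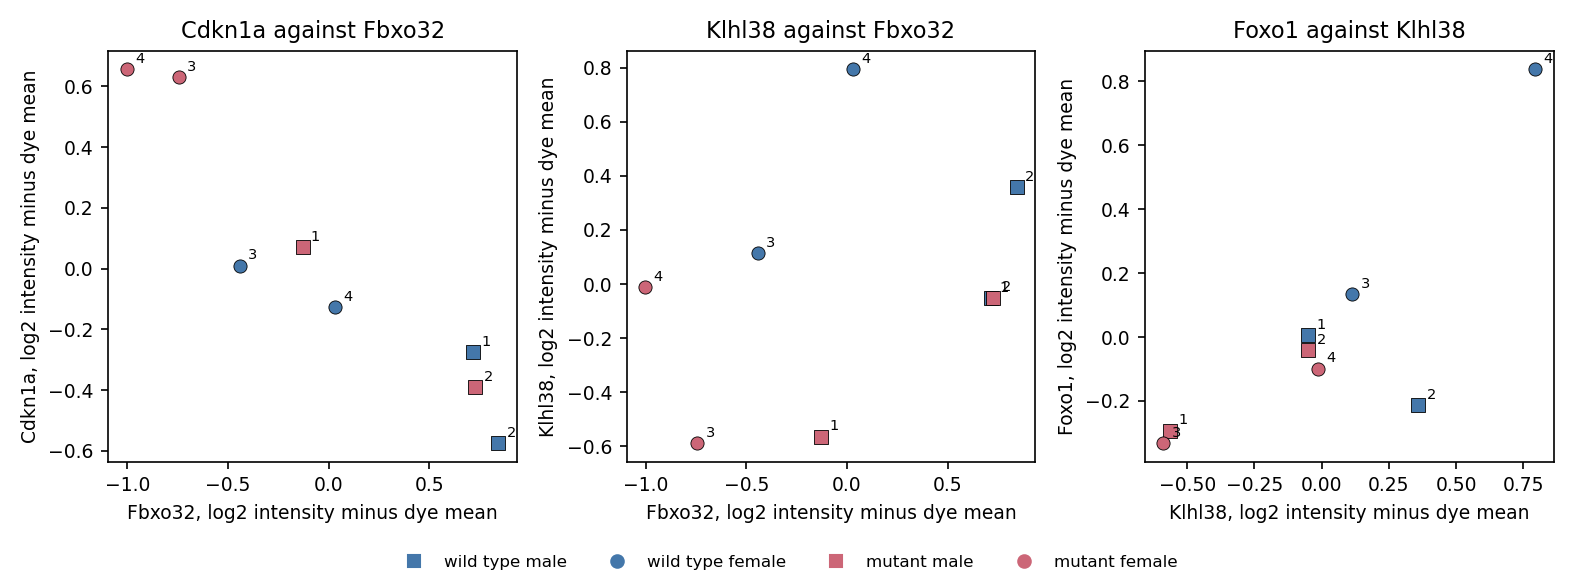
Levels of 3 pairs of genes in the 8 animals, each log2 intensity minus the mean of its dye, with the pair number beside each point (squares males, circles females, blue wild type, red mutant). Cdkn1a is lower in animals with higher Fbxo32 (r = −0.95), Klhl38 shows little relation to Fbxo32 (r = 0.32), and the relation of Foxo1 to Klhl38 (r = 0.82) leans on wild type animal 4.

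Among 11892 other genes, those with the pattern most like Fbxo32 over the 8 animals were Nfatc3 (r = 0.99), Mtus1 and Tap2 (r = 0.98 each). Their own ratios were small, at −0.07, −0.13 and −0.11. Most like Klhl38 were Eif4a1, Gnat2 and Fbxo3 (r = 0.97 each), with log2 ratios of −0.17, −0.21 and −0.25. Most like Trim63 were L3mbtl2, Ghrl and Prpf6 (r = 0.99 each), and most like Cdkn1a were Lrrc75a, Srpk1 and Tubb5 (r = 0.98 each). Each r here and below is among the highest of 11892 values over only 8 animals, so its size is not read as a link.

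Most like Foxo1 were Tnnc1, Myh7b and 4933409K07Rik (r = 0.98 each). Tnnc1, the troponin C of slow and cardiac muscle and a marker on the slow fibre list, read 8.38, 6.94, 8.84 and 11.10 in wild type animals and 7.22, 8.34, 7.39 and 8.01 in mutants. Wild type animal 4 was thus the highest of the 8 in Tnnc1 as in Foxo1. Its summed slow fibre markers, at 151727 units, were also the highest. Whether Foxo1 went with the slow fibre content of the samples was not tested.

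The wider pathway was read from 10 lists of other genes, 169 tested genes in all. Of these, 0 passed the limma test between genotypes (lowest adjusted p 0.99) and 13, or 7.69%, had an unadjusted p under 0.05, beside 3.35% of all tested probes. The lists were chosen with earlier results known and use the brightest tested probe of each gene. The shares are thus not like for like, and nothing is read from the gap. Of the 27 other muscle ubiquitin ligases and partners, 9 had ratios below 0 and 18 above (median 0.02). The largest were those of Asb2, a subunit of a cullin 5 ligase, at −0.35 (SE 0.12), and of the F-box gene Fbxo9 at −0.28 (SE 0.09). Asb2 ran lower in pairs 1 and 3 (−1.07 and −0.59) and slightly higher in pairs 2 and 4 (0.20 and 0.05).

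Downstream machinery gave small ratios. Of 13 genes of the cullin ligase core, 4 were below 0 and 9 above, with a median of 0.028 and largest values of 0.09 (SE 0.10) for Nedd8 and 0.07 (SE 0.10) for Ube2d3. Of 35 proteasome subunits, 13 were below 0 and 22 above, with a median of 0.046. The largest were Psmd8 at 0.30 (SE 0.16) and Psmd11 at 0.20 (SE 0.18). Of 8 kelch relatives of Klhl38 in muscle, 4 were below 0 and 4 above, Klhl30 at 0.48 (SE 0.29) and Klhl40 at 0.39 (SE 0.23) being largest. Both were highest in the female pairs, with pair ratios of −0.80, 0.44, 0.81 and 1.46 for Klhl30 and −0.40, 0.19, 0.76 and 1.02 for Klhl40.

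Other FoxO targets did not share a direction, with 14 of 24 below 0 and 10 above (median −0.022). Pdk4, the kinase that shuts pyruvate dehydrogenase, had the largest ratio at 0.93 (SE 0.38). It read 12.16, 12.30, 12.57 and 13.60 in wild type animals and 14.81, 13.27, 13.63 and 12.62 in mutants, higher in 3 pairs and lower in pair 4. Cited2, a transcriptional co-regulator, gave 1.16, 0.94, 1.08 and 0.09 with a fitted mean of 0.82 (SE 0.15). FoxO regulators split evenly, 12 below 0 and 12 above (median −0.0045), with Tnfrsf12a, the receptor of TWEAK, at 0.83 (SE 0.47) and the kinase Sgk1 at −0.38 (SE 0.19). The pair ratios of Tnfrsf12a were −0.68, 0.11, 1.40 and 2.49, highest in the female pairs.

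Glucocorticoid targets had the lowest median of the 10 lists, −0.21, with 11 of 15 genes below 0, beside 49.6% of tested probes. The list shares Klf15, Ddit4, Mt1, Mt2 and Sesn1 with the other FoxO targets and Sgk1 with the FoxO regulators, so it is not separate from them. The pair medians were −0.026, 0.18, −0.62 and −0.39, the lowest of them in the female pairs. Klf15, a factor that glucocorticoids induce in muscle, was lower in 4 of 4 pairs (−0.44, −0.30, −0.57 and −0.64), as were 5.10% of tested probes. Its fitted mean was −0.49 (SE 0.10). Ddit4, an inhibitor of mTORC1, had a mean of −0.48 (SE 0.36) and ranged from −2.22 in pair 3 to 1.04 in pair 2. Neither passed the limma test (adjusted p 1 for each).

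Of 13 p53 targets, 6 were below 0 and 7 above (median 0.0055), Trp53inp1 at −0.43 (SE 0.14) and Perp at −0.33 (SE 0.11) being largest. Of 13 denervation genes, 6 were below 0 and 7 above (median 0.026), with Ankrd1, a stress-responsive ankyrin repeat protein, at 1.59 (SE 0.83) and the acetylcholine receptor subunit Chrnd at −0.16 (SE 0.11). The pair ratios of Ankrd1 were −1.24, 0.59, 3.77 and 3.25, so its mean rests on the female pairs. Of 6 relatives of Gadd45a and Cdkn1a, 4 were below 0 and 2 above (median −0.04), with Gadd45g at −0.45 (SE 0.25) and Cdkn1c at −0.27 (SE 0.09).

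Between the sexes, 6 of the 169 genes passed the limma test, or 3.55%, beside 1.38% of all tested probes. These shares are not like for like either, since the lists were chosen with earlier results known. Irs2, an insulin receptor substrate and FoxO target, was lower in females, at 11.22, 10.78, 11.10 and 10.53 against 12.21, 12.12, 12.28 and 12.41 in males. Its log2 difference was −1.35 (SE 0.18, limma adjusted p 0.019). The mitophagy receptor gene Bnip3 was also lower (−0.63, SE 0.10, limma adjusted p 0.0303), whereas Sesn1, a target of FoxO and p53, was higher in females (1.02, SE 0.16, limma adjusted p 0.0303).

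Cebpb, a glucocorticoid target, was higher in females by 1.02 (SE 0.17, limma adjusted p 0.0354). Musk, the receptor kinase of the neuromuscular junction, was lower by −0.82 (SE 0.10, limma adjusted p 0.0154). Cdkn1c, the p57 relative of p21, was lower by −1.22 (SE 0.16, limma adjusted p 0.0181), opposite in sign to the difference of Cdkn1a. No gene of the ligase, cullin, proteasome, FoxO regulator or kelch lists passed.

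The second smallest p in the other lists with a call belonged to Chrna1, an acetylcholine receptor subunit (0.53, SE 0.10, limma adjusted p 0.0544), Gadd45b (−0.91, SE 0.21, limma adjusted p 0.0796) and Perp (−0.58, SE 0.14, limma adjusted p 0.0804), none of which passed.

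Most of the 6 calls were lost when 1 array was left out. Without pair 2, pair 3 or pair 4 none of the 6 genes passed, with limma adjusted p-values of 0.0783 to 0.0827, 0.0623 to 0.125 and 0.201 to 0.604, and without pair 1 only Musk (0.0397) and Cdkn1c (0.0279) did. Without single pairs the difference of Musk lay between −0.85 and −0.80 and that of Sesn1 between 0.78 and 1.25. Each of the 6 kept its direction in 9 of 9 alternative analyses, which were chosen for these genes after their values were seen.

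**Figure D5:**
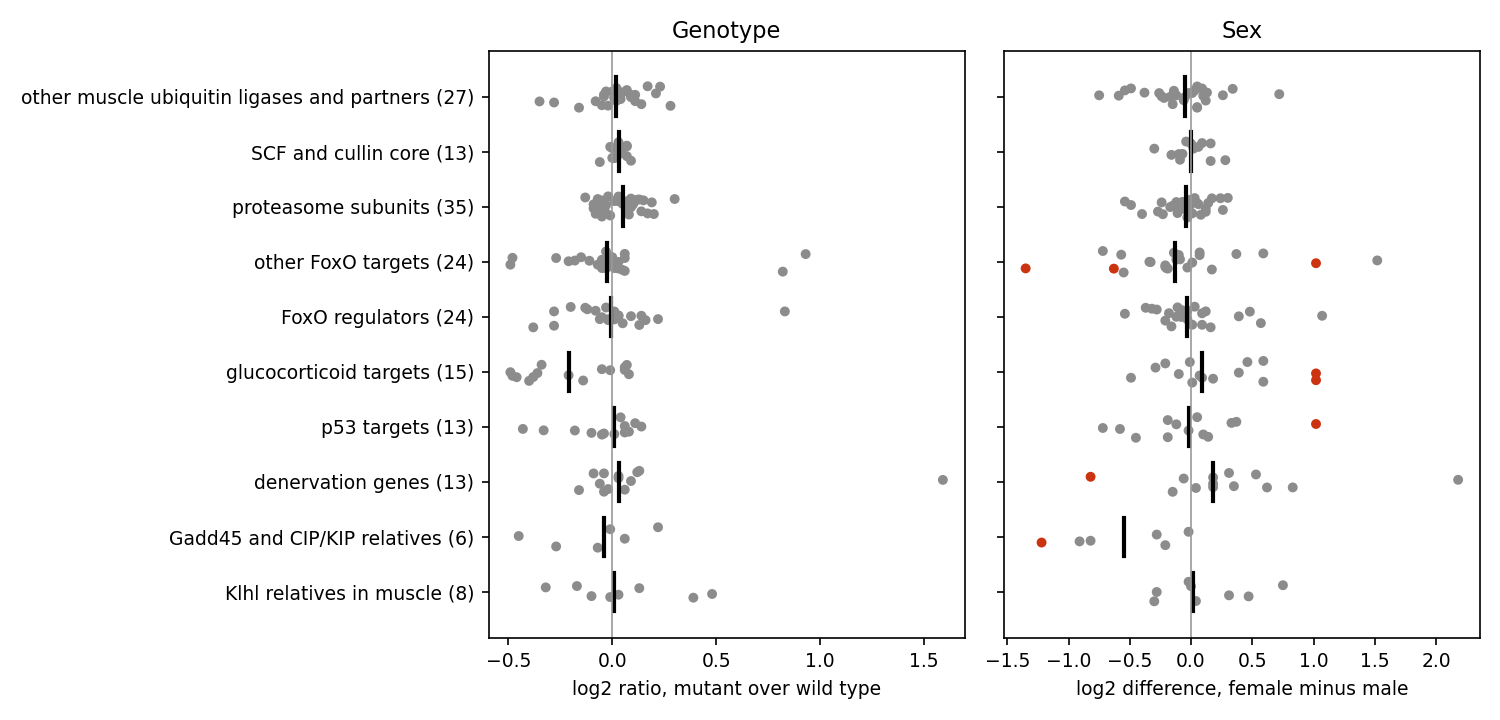
Fitted log2 ratios between genotypes (left) and log2 differences between sexes (right) for the 10 lists of other pathway genes, with the number tested in brackets. Each point is a gene, black bars are list medians, and red points passed an adjusted p of 0.05. Genotype medians run from −0.21 for glucocorticoid targets to 0.046 for proteasome subunits, with no red point, and the sex panel has 6 genes in red, Sesn1 appearing in 3 lists.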

How the data were processed

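The deposited scanner files hold median spot and background intensity values without background subtraction, extracted per the file headers with Agilent Feature Extraction 10.7.3.1, beside processed intensity values that were background-subtracted and dye-normalized. They also hold other values, flags of 0 or 1 per the file headers, for spots above background, saturated spots and outliers. The deposited series table holds log2 values centred per probe, judged from the values. Its normalization before that is not stated by the labels or headers. It held 0 columns from outside the series.

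For background correction, normexp (offset 50) was run on median signals, since the files used hold no means, and arrays were normalized by loess, with control and outlier spots at weight 0. Spots of a probe were averaged, and of several tested probes of a gene the brightest represented it. A probe was tested where each of the 4 arrays gave a value and 4 or more of 8 samples were well above background (23098 probes, 11893 named genes). Log2 ratios were fitted with a dye term in limma 3.58.1, run in R 4.3.3. Aquantile normalization preceded the sex fit, which lmscFit ran on the separate channels (intraspot correlation 0.189). P-values were adjusted by Benjamini-Hochberg over all tested probes at a threshold of 0.05. Standard errors (SE) are those after moderation by eBayes. The code was tested on simulated data.

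Pairs are physical, since animals of the same number shared an array; their deviations from group means correlated at 0.66, 0.28, 0.06 and 0.64 across probes. The animals are separate individuals per the labels. The array design was made on mm9 per the file headers, so names came from RefSeq accessions of GRCm38.p6. The 10 genes, the lists and the tests were chosen with earlier results of these data known. Named were all probes of the 10 genes, the 3 most similar genes for each of 5 of them, and from each list the 2 largest genotype ratios and, where any passed, the 2 smallest p-values between sexes. Alternatives were processed signals, the deposited table, median centring, no dim-probe filter, no dye term, no array block, separate channels and leaving out each pair.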

Additional observations from a re-analysis of the deposited data

Results flagged for a closer look

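Over the 13 tested probes, 26 groups of 4 animals were screened for a sample far from the others, a screen that chance alone trips in about 1 of 20 groups. It picked out wild type animal 4 for the brighter Foxo1 probe, at 10.39 against 9.49 in the next animal, a gap of 0.85 of the range of the group.

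For Trim63 the male pairs were lower in the mutant and the female pairs higher by the brighter probe. The female minus male difference of its log2 ratio was 0.34 (SE 0.23, limma adjusted p 1). The other Trim63 probe did not show this, with pair ratios of −0.77, 0.15, −0.07 and 0.28 and a difference of 0.42 (SE 0.25). For Fbxo30 the male pairs were higher and the female pairs lower by the brighter probe, with a difference of −0.20 (SE 0.22, limma adjusted p 1), although pair 4 lay at 0 after rounding. The other Fbxo30 probe did not show this, with pair ratios of −0.12, 0.09, 0.12 and −0.07 and a difference of 0.04 (SE 0.24). None of these differences passed the test, and 8.58% of tested probes had the male pairs one way and the female pairs the other.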

How the results depend on the processing

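The number of probes past the threshold depended on the processing, and with few arrays the causes were not tested. For genotype it was 0 in the main analysis and with the processed signals and the deposited table, but 23 with median centring (2 higher, 21 lower), 5 without the dim-probe filter, 2 without the dye term, 3 with no replicate block, 4 with separate channels, and 0 to 245 when each pair was left out (245 without pair 3, 5 without pair 1). For sex it was 319, against 179 with processed signals, 726 with median centring, 550 without the filter, 852 with no replicate block and 16 to 247 when each pair was left out. For the interaction it was 0, against 22 with median centring and 38 without the filter. The interaction could not be fitted with a pair left out, and the sex fits of 3 arrays used the intraspot correlation of all 4.

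The ratios of Foxo1 (−0.66 to −0.11) and Cdkn1a (0.33 to 0.75) kept their direction in 11 of 11 alternatives. So did those of Fbxo32 (−0.80 to −0.34) and Klhl38 (−0.85 to −0.51). These genes were selected on this contrast in the same arrays, so nothing is read from their kept direction. Signs turned with median centring for the ratios of Fbxo30 (−0.04) and Fbxo40 (−0.02) and the interaction of Fbxo32 (0.0035). Leaving out single pairs gave ranges that cross 0 for the ratios of Fbxo30 (−0.03 to 0.08), Fbxo31 (−0.42 to 0.29), Fbxo40 (−0.00096 to 0.12), Gadd45a (−0.32 to 0.14) and Trim63 (−0.22 to 0.01), and for the sex differences of Klhl38 (−0.16 to 0.47) and Trim63 (−0.04 to 0.19). The limma adjusted p of the Fbxo32 sex difference was 0.0178 with median centring, 0.0459 without the filter and 0.0377 with no replicate block, and that of Fbxo31 was 0.0482 with median centring. The block changed no other call of the 10 genes. Of the 6 pathway genes that differed between the sexes, Irs2, Bnip3, Sesn1 and Cebpb missed the threshold with the processed signals (limma adjusted p 0.0614, 0.0644, 0.0614 and 0.0697) and with the deposited table (0.0588, 0.0573, 0.0596 and 0.0697), while Musk and Cdkn1c passed with both. Dim signal limits Foxo3 and the second Cdkn1a probe.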
